A study of Homo sapiens with 4 samples.

Results

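The MuvB core, the MYB proteins and FOXM1 form a small set of cell cycle regulators, and their transcripts were followed here in neuroblastoma cells exposed to Nutlin-3. The set holds 8 of the 25693 human genes in the count table. These are MYBL1, MYBL2, FOXM1, and the 5 subunits of the MuvB core, LIN9, LIN37, LIN52, LIN54 and RBBP4. The genes were chosen by their place in the pathway and with their summed counts per treatment already known. The fold between the treatments is therefore a description for every one of them, and no test was applied to it.

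NGP is an established human neuroblastoma line with amplified MYCN. The cells of all groups were synchronised by taking away serum and then spent 24 h with Nutlin-3, a compound that keeps MDM2 from binding p53, or with ethanol, the solvent. Single cells were captured on a ddSeq device, and libraries were made with a SureCell kit that reads the 3' end of polyadenylated RNA. Of the 4 libraries, 2 per treatment, one in each treatment received ERCC spike-in RNA diluted 1000-fold and the other 10000-fold.

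The column names of the table tell the treatment and not the library, so the 250 columns of each treatment were summed as 1 pool. With 1 pool per treatment there is no replicate, and in such sums fewer cells with a transcript and less RNA per cell cannot be told apart. Intervals given below are 95% intervals that cover counting error only, exact Poisson for sums and exact binomial for folds and shares. Of the 250 names in a treatment, 219 also occur in the other treatment. In each treatment 113 columns held more than 4000 counts and are called large, and the names of these 113 are the same in both treatments. The other 137 are called small. Whether equal names are barcodes reused between libraries or come from the way the table was built is not stated, and the columns of the 2 treatments may then not be separate sets of cells.

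MuvB is a scaffold without enzymatic activity that changes partners through the cell cycle. In resting cells it joins E2F4 or E2F5, DP proteins and the RB relatives RBL1 and RBL2, and this DREAM complex represses cell cycle genes. In cycling cells MuvB leaves these partners, binds MYBL2 (also called B-MYB), then recruits FOXM1, and the assembly activates genes of G2 and mitosis. MYBL2 and FOXM1 are themselves cell cycle genes, and p53 is known to favour DREAM by way of the CDK inhibitor p21, the product of CDKN1A.

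The human counts summed to 1342134 under ethanol and 1301232 under Nutlin-3, and the median human count of a large column was 10738 and 10617. CDKN1A, a p53 target, had 70 counts under ethanol and 188 under Nutlin-3, a log2 fold of 1.46 (1.07 to 1.89). MDM2, also a p53 target, had 315 and 504 counts, a log2 fold of 0.72. The 8 adrenergic neuroblastoma markers all had counts, 2562 under ethanol and 2336 under Nutlin-3 together, with MYCN the highest at 1140 and 877. Of 7 mesenchymal markers 5 had values and summed to 417 and 399, most of it VIM at 276 and 277. Of 4 epithelial markers 3 had values and summed to 19 and 21. Of 5 blood markers only LYZ was analysed here, with 24 and 49 counts, and its part in the folds below was not tested.

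MYBL1 had the lowest fold of the set. This gene encodes A-MYB, a DNA-binding relative of MYBL2 that is best known from male germ cells. Its count was 93 (75.1 to 114) under ethanol and 45 (32.8 to 60.2) under Nutlin-3, a log2 fold of -0.99 (-1.55 to -0.47). The counting intervals of the 2 pools do not overlap. Among the 14830 genes that passed a filter on low counts, 2.12% had a lower fold.

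MYBL2 and FOXM1 had nearly the same fold as each other and a smaller one than MYBL1. MYBL2, the MYB protein of the activating MuvB complex, had 155 counts (132 to 181) under ethanol and 118 (97.7 to 141) under Nutlin-3. Its log2 fold was -0.35 (-0.71 to 0.01). FOXM1, the forkhead factor that drives mitotic genes, had 138 counts (116 to 163) under ethanol and 105 (85.9 to 127) under Nutlin-3. Its log2 fold was -0.35 (-0.73 to 0.03). Both were lower under Nutlin-3, and the counting interval of each fold reaches just above 0.

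Within the core, 3 of the 5 subunits were lower under Nutlin-3 and LIN37 and RBBP4 were level. LIN54, the subunit that binds DNA at the CHR element, had 94 counts under ethanol and 71 under Nutlin-3, a log2 fold of -0.36 (-0.82 to 0.10). LIN52, the subunit that DYRK1A phosphorylates to assemble DREAM, had 79 and 61 counts, a log2 fold of -0.32 (-0.83 to 0.17). LIN9, which with LIN52 forms the surface that holds MYBL2, had 112 and 94 counts, a log2 fold of -0.21 (-0.62 to 0.20). All 3 counting intervals include 0.

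RBBP4 and LIN37 did not stand apart between the treatments. RBBP4, a histone-binding protein that also belongs to other chromatin complexes, had 204 and 198 counts, a log2 fold of 0.00 (-0.29 to 0.29). LIN37, the subunit needed for repression by DREAM, had 17 counts in each pool, a log2 fold of 0.05 (-1.01 to 1.11). Scaling to the ERCC spikes in place of human counts lowers every log2 fold by 0.47 and puts RBBP4 and LIN37 below 0. The spikes were added at 2 dilutions that the columns do not separate. The LIN37 interval is wide enough to hold a change as large as that of MYBL1 in either direction.

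**Figure D1:**
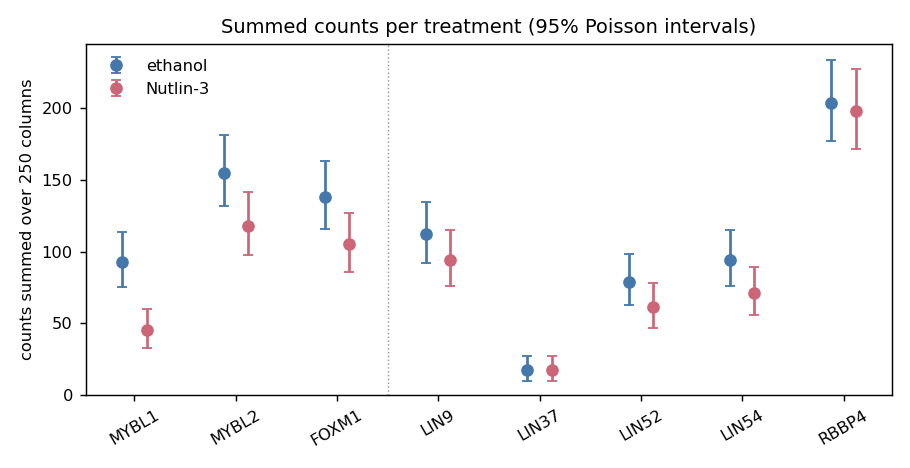
Counts of each gene summed over the 250 columns of a treatment (y axis) for ethanol (blue) and Nutlin-3 (red), with 95% Poisson intervals. The dotted line parts MYBL1, MYBL2 and FOXM1 from the 5 core subunits. Only for MYBL1, at 93 and 45, are the intervals apart, and LIN37 has 17 counts in each pool.

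Over the whole set, 6 of the 8 genes had a log2 fold below 0, where 50.3% of the genes that passed the filter did. A fold of -0.25 or lower was found for 5 of the 8, MYBL1, MYBL2, FOXM1, LIN52 and LIN54, against 16.0% of all genes. MYBL1 alone reached -0.5 or lower, against 7.50% of all genes. These shares describe the contrast on which the genes were selected and support nothing further. The median fold was -0.35 for MYBL1, MYBL2 and FOXM1 and -0.21 for the core, where the median over all genes was -0.0011 with a central 95% from -0.92 to 1.12.

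Summed over MYBL1, MYBL2 and FOXM1, the count was 386 under ethanol and 268 under Nutlin-3, a log2 fold of -0.48 (-0.71 to -0.25). The 5 core genes summed to 506 and 441, a log2 fold of -0.15 (-0.34 to 0.03). The difference between the summed folds was -0.33 (-0.63 to -0.03), taken as the log2 odds ratio of the counts. This difference rests on 1 gene of each class. Without MYBL1 it was -0.20 (-0.52 to 0.12), and without RBBP4, which gives the largest share of the core's counts, it was -0.21 (-0.55 to 0.13). MYBL2 and FOXM1 therefore differed from the core by less than counting error. The regulated genes and LIN52 and LIN54 had overlapping folds, so the set does not divide by class at this depth.

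The spread of folds in this table depends on the level of a gene, and the 8 genes lie in different ranges of it. Among the 2954 genes with a mean summed count of 120 to 160, the central 95% of folds ran from -0.24 to 0.24. MYBL2 and FOXM1 lie in that range and outside its central 95%, with 11 genes (0.372%) as low as MYBL2 and 10 genes (0.339%) as low as FOXM1. These counts, and the shares given below for the other ranges, include the gene itself. In this range a large column holds about 1 count of a gene, with means of 1.15 and 0.965 for MYBL2 under ethanol and Nutlin-3, and whether that narrows the folds was not tested. Over all genes that passed the filter their folds stood at the percentiles 11.6 and 11.5.

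Genes with a mean count of 80 to 120 spread more, from -0.41 to 0.38. Of the 3821 genes in that range, 3.79% were as low as LIN54 at -0.36 and 12.7% as low as LIN9 at -0.21. Both stayed inside the central 95%. Between 40 and 80 counts the central 95% ran from -0.75 to 0.86, with 0.814% of 2826 genes as low as MYBL1 and 15.5% as low as LIN52. MYBL1 was thus outside the central 95% of its range and LIN52 inside it. In the range of RBBP4, 160 to 250 counts, 59.5% of 870 genes were as low, and in that of LIN37, 10 to 40 counts, 51.8% of 3666 were. These ranges were set after the data had been seen, and the positions restate the folds on which the genes were selected, so they support nothing further.

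**Figure D2:**
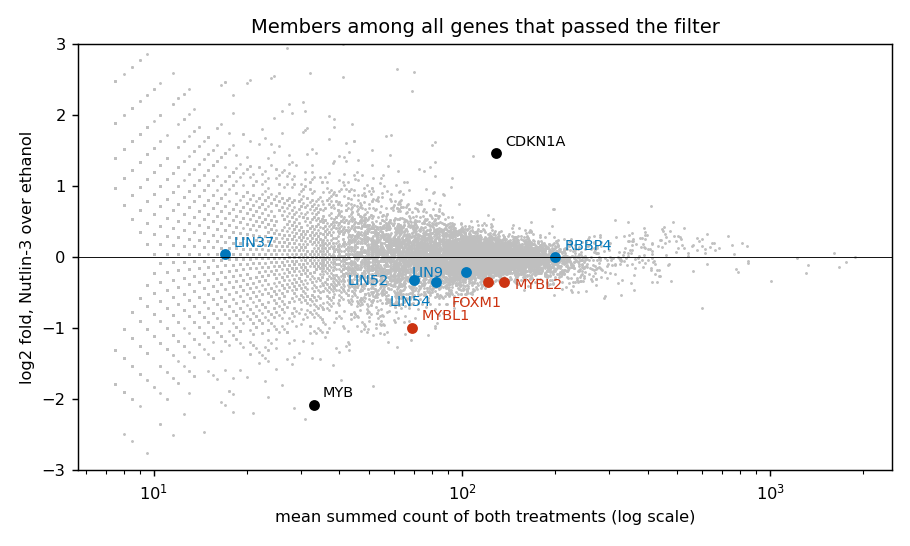
Log2 fold of Nutlin-3 over ethanol (y axis) against the mean summed count of both treatments (x axis, log scale) for the genes that passed the filter (grey). Another 34 genes lie outside the plotted folds of -3 to 3. MYBL1, MYBL2 and FOXM1 are red, the core blue, MYB and CDKN1A black. The grey cloud narrows near 120 to 160 counts, where MYBL2 and FOXM1 lie at its lower edge.

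MYB, the founding member of the family, shows how the MYB transcripts were made up. It encodes c-MYB, a factor best known from blood progenitors, and it does not share the MuvB-binding role ascribed to MYBL2. It had 54 counts under ethanol and 12 under Nutlin-3, a log2 fold of -2.08 (-3.16 to -1.20). Of all genes that passed the filter, 0.108% had a lower fold. The fold of MYB was lower than that of each of the 8 genes, and among them its interval overlaps only that of MYBL1.

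The 3 MYB genes together had 302 counts under ethanol and 175 under Nutlin-3. MYBL2 gave 51.3% (45.5 to 57.1) of them under ethanol and 67.4% (59.9 to 74.3) under Nutlin-3, and these intervals do not overlap. The share of MYB was 17.9% (13.7 to 22.7) under ethanol and 6.86% (3.59 to 11.7) under Nutlin-3, which do not overlap either. MYBL1 held 30.8% (25.6 to 36.3) and 25.7% (19.4 to 32.9), which do. MYBL2 was the most counted MYB gene in both pools, and it made up more of the family under Nutlin-3 although its own count was lower there. These shares are of counts and take no account of transcript length. MYBL2 had a mean of 1.15 counts per large column under ethanol and 0.965 under Nutlin-3, where MYB had 0.442 and 0.106. Whether counts near 1 per column scale with the amount of transcript was not tested. The shares are thus not shown to be shares of transcript.

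Large and small columns gave different sizes of fold for the same genes. MYBL1 had 86 and 40 counts in large columns, a log2 fold of -1.05 (-1.64 to -0.51), and 7 and 5 in small ones. For MYBL2 the large columns held 130 and 109 counts, a log2 fold of -0.21 (-0.59 to 0.16), and the small columns 25 and 9, a log2 fold of -1.29 (-2.62 to -0.19). FOXM1 had 120 and 100 counts in large columns, a log2 fold of -0.22 (-0.62 to 0.17), and 18 and 5 in small columns, a log2 fold of -1.61 (-3.50 to -0.23). For MYBL2 and FOXM1, then, the interval excludes 0 in the small columns and includes it in the large ones, and the intervals of the 2 classes overlap.

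The core genes differed among themselves between the classes of columns. RBBP4 had 144 and 145 counts in large columns and 60 and 53 in small ones, with log2 folds of 0.05 and -0.04. LIN54 had 92 and 65 counts in large columns, a log2 fold of -0.46 (-0.94 to 0.01). In small columns LIN54 had 2 and 6 counts, a log2 fold of 1.51 (-0.76 to 5.06), which is the opposite sign on very few counts. LIN52 had log2 folds of -0.32 and -0.31, the second on 7 and 5 counts. LIN9 had 103 and 91 counts in large columns, a log2 fold of -0.14 (-0.56 to 0.28), and 9 and 3 in small ones, a log2 fold of -1.30 (-3.97 to 0.55) close to that of MYBL2. The difference between regulated and core genes in this respect was not tested gene by gene. LIN37 had 15 and 17 in large columns and 2 and 0 in small ones. MYBL2, FOXM1 and RBBP4 were the members that passed the filter in small columns, where 48.0% of 4762 genes were below 0. MYBL2 and FOXM1 passed through their ethanol counts alone, so their sign among these genes supports nothing. RBBP4 was level at -0.04.

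**Figure D3:**
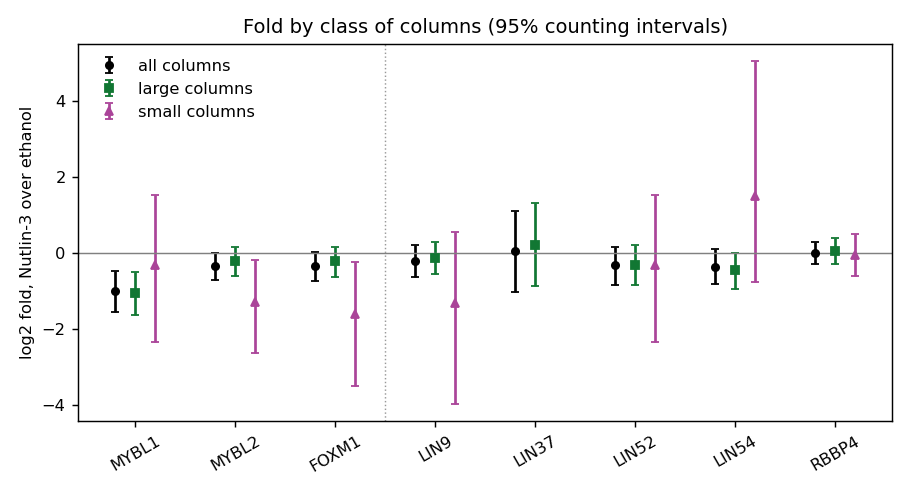
Log2 fold of Nutlin-3 over ethanol (y axis) for each gene over all columns (black), large columns (green) and small columns (purple), with 95% counting intervals. LIN37 has no fold in small columns. MYBL1 lies below 0 in all and in large columns, while FOXM1, LIN9 and MYBL2 are lower in small than in large columns, at -1.61, -1.30 and -1.29.

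Within the large columns nearly every count was 0 or 1, and 91.2% of the members' nonzero values equalled 1. How the counts were made is not stated for this table, and whether they scale with the amount of transcript at about 1 count per column was not tested. Mean counts of MYBL2, FOXM1 and RBBP4 lie near that level, and those of LIN9, 0.912 under ethanol and 0.805 under Nutlin-3, just below it. The folds of these genes are therefore not shown to be comparable in size with those of less counted genes. The number of columns without a count describes the same data in another way. MYBL2 was at 0 in 0 of 113 large ethanol columns (0%, 0 to 3.21) and in 13 of 113 Nutlin-3 columns (11.5%, 6.27 to 18.9). FOXM1 was at 0 in 1 ethanol column (0.885%, 0.0224 to 4.83) and in 16 Nutlin-3 columns (14.2%, 8.32 to 22.0). Both genes were missing from more Nutlin-3 columns. The columns of a treatment come from 1 pool and are no replicates of it, so these intervals cover counting within a pool and make no comparison of the treatments.

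MYBL1 and LIN54 had the widest shifts of this measure. MYBL1 was at 0 in 30 large ethanol columns (26.5%, 18.7 to 35.7) and in 73 Nutlin-3 columns (64.6%, 55.0 to 73.4). LIN54 was at 0 in 25 (22.1%, 14.9 to 30.9) and in 50 (44.2%, 34.9 to 53.9). Both were missing from more columns under Nutlin-3. LIN9 was at 0 in 14 and 27 columns and LIN52 in 41 and 58. LIN37 lacked a count in 98 and 96 columns. RBBP4 had a count in all 113 columns of both treatments, 1 count in 85 and 2 or more in 28 under each, so this measure is at its limit for RBBP4 and cannot show a higher level.

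Between large columns the variance was smaller than the mean for all 8 genes. For MYBL2 the variance was 0.112 times the mean under ethanol and 0.202 times under Nutlin-3, where independent (Poisson) counts have a ratio near 1. For FOXM1 the ratios were 0.0720 and 0.177. RBBP4 gave ratios of 0.242 and 0.229 under ethanol and Nutlin-3, and LIN37, the least counted, gave 0.875 and 0.857. Except for LIN37, counting intervals that assume independent counts are then wider than the spread between these columns. They still hold no variation between cultures.

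MYBL1, MYBL2 and FOXM1 were all seen together in 82 of 113 large ethanol columns (72.6%, 63.4 to 80.5) and in 31 of 113 Nutlin-3 columns (27.4%, 19.5 to 36.6). MYBL1 sets this number, as it was seen in 83 and 40 columns, where MYBL2 was seen in 113 and 100 and FOXM1 in 112 and 97. All 5 core genes were seen together in 9 and 4 columns, and LIN37 itself was seen in 15 and 17. A large column held a median of 6 of the 8 genes under ethanol and 5 under Nutlin-3.

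**Figure D4:**
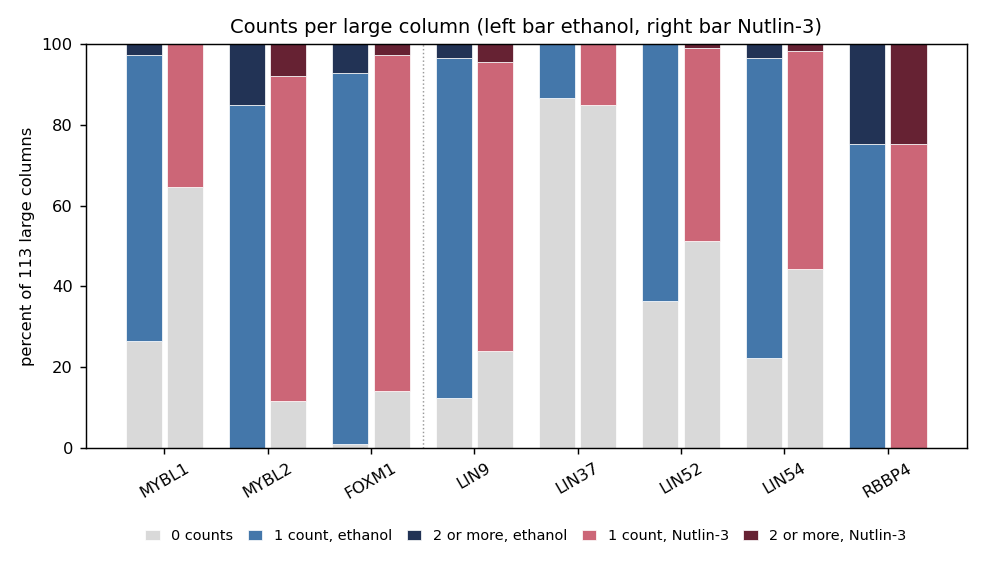
Percent of the 113 large columns of each treatment (y axis) with 0 counts (grey), 1 count (light colour) and 2 or more (dark colour) of each gene, ethanol on the left and Nutlin-3 on the right of a pair. The grey part is larger under Nutlin-3 for MYBL1 (30 and 73 columns), FOXM1 (1 and 16) and MYBL2 (0 and 13). It is also larger for LIN54 (25 and 50), LIN52 (41 and 58) and LIN9 (14 and 27). For LIN37 it is nearly equal (98 and 96), and for RBBP4 it is absent.

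Over all 250 columns of a treatment, MYBL2 had a count in 55.2% with ethanol and 43.6% with Nutlin-3, FOXM1 in 52.0% and 40.8%, and MYBL1 in 36.0% and 18.0%. Each column was thinned at random to 700 counts in a single draw. At that depth 194 ethanol and 187 Nutlin-3 columns were deep enough, and 56 and 63 were left out. MYBL2 was then seen in 11.3% (7.24 to 16.7) with ethanol and 2.67% (0.874 to 6.13) with Nutlin-3. At 350 counts per column the MYBL2 shares were 4.98% (2.60 to 8.54) and 1.73% (0.474 to 4.37), and in large columns at 350 counts the order turned, with 1.77% and 2.65%. The order of MYBL1 also turned with thinning, to 3.09% and 3.74% at 700 counts and 0.415% and 1.30% at 350. LIN9, seen in 43.2% and 35.6% of columns before thinning, had 3.09% and 5.35% at 700 counts. RBBP4 was seen in 13.9% (9.38 to 19.6) and 18.7% (13.4 to 25.1). All thinned shares come from a single draw per column and depth, and draws were not repeated, so MYBL2 and RBBP4 have no settled order either. At 700 counts the shares of the genes other than MYBL2 and RBBP4 lay between 0% and 6.19%. These are too near the level of a few columns to carry an order. The 0% is LIN37 under Nutlin-3, 0 of 187 columns, which allows a share of up to 1.60%.

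Levels were compared between genes per kilobase of annotated exon, since longer genes had more counts (Spearman rho 0.307 across 14797 genes, which are not independent replicates). On that scale of CPM per kilobase, where CPM is the count scaled to a common total with TMM factors, MYBL2 was the highest at 41.6 (35.3 to 48.7) under ethanol and 32.7 (27.0 to 39.1) under Nutlin-3. FOXM1 followed at 21.0 and 16.5, then LIN9 at 18.8 and 16.3. The next neighbours were RBBP4 at 16.0 and 16.1 and LIN52 at 15.9 and 12.7. LIN54 at 10.3 and 8.07, MYBL1 at 9.57 and 4.78 and LIN37 at 4.49 and 4.64 came last, and the order was the same in both pools. Only the step from MYBL2 to FOXM1 exceeded the counting intervals in both, and the step from MYBL1 to LIN37 did so under ethanol alone. By CPM without length RBBP4 came first, at 152 in each pool. Under Nutlin-3 its interval (132 to 175) lay above that of MYBL2 (75.1 to 109). Which of these genes ranks first thus depends on the division by length. Counts of MYBL2, FOXM1 and RBBP4 lie near 1 per large column, where scaling with the amount of transcript was not tested. The kit reads the 3' end of transcripts, and how length bears on these levels was not tested further.

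Promoters were searched for the letters of the CHR element, the E2F core and the CCAAT box. Sites of the MYB proteins and of FOXM1 were not searched. RefSeq (GRCh38.p14) gave 11 promoter entries for 6 of the 8 genes, each from 250 bases before to 50 bases after a start site. The genes not matched are MYBL1 and FOXM1. Motifs were searched on both strands. The CHR element, which LIN54 binds, was taken as TTTGAA and likewise TTCGAA, and 16.4% of the 35116 promoters of the table hold it. The E2F core was taken as TTGGCG and likewise TTCGCG, with TTCCCG and also TTGCCG as further forms, and 31.1% of promoters hold one. The CCAAT box was taken as CCAAT, which 34.6% hold. Matches of different motifs may overlap. The stretches below are from MYBL2, LIN54 and LIN52, which were lower under Nutlin-3, and from RBBP4, which was level, with the matches in capitals, 5' to 3'.
MYBL2: gcgccgacgcgcTTGGCGggagatagaaaa
LIN54: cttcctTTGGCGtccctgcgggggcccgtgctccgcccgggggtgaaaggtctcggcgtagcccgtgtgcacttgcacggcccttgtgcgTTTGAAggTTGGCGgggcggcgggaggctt
LIN52: tggaacctcgttTTCCCGccgacggttggc
RBBP4: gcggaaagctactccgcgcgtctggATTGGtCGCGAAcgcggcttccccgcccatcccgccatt

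The MYBL2 stretch is chr20:43667061-43667090 on the plus strand and holds an E2F core that begins 41 bases before the start site. LIN54, chr4:83010894-83011013 on the minus strand, holds a CHR element 100 bases before its start, with E2F cores at 184 and 92 bases before it, the second of them 2 bases after the CHR element. LIN52, chr14:74084920-74084949 on the plus strand, holds an E2F core 24 bases before its start. RBBP4, chr1:32651078-32651141 on the plus strand, holds a CCAAT box and an E2F core at 105 and 99 bases before its start, both read on the opposite strand. No CHR letters were found in the RBBP4, LIN52 and MYBL2 windows. A match is a description of letters, and a window without one says nothing of the factor. An E2F core was present in genes with a lower count (MYBL2, LIN54, LIN52, and 2 of the 3 LIN9 windows) and in RBBP4, whose count was level. CHR letters were also found in the third LIN9 window, at 60 and 3 bases before its start, and in 1 of the 2 LIN37 windows, at 182 bases before its start, with no E2F core in either LIN37 window. The MYBL2 and LIN52 stretches lie within annotated exons of those genes, and the LIN54 and RBBP4 stretches outside exons.

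The partners that turn MuvB into DREAM were mostly level. The list holds RBL1, RBL2, E2F4, E2F5, TFDP1, TFDP2 and DYRK1A. Of all genes that passed the filter, 50.3% were below 0 and 16.0% at -0.25 or lower. The median log2 fold of the list was -0.04, with 5 of 7 below 0 and 1 at -0.25 or lower. That gene was RBL1, which encodes p107, an RB relative that is itself a cell cycle gene, with 85 and 60 counts and a log2 fold of -0.45 (-0.96 to 0.04). The most counted partners were TFDP1 with 155 and 130 counts (log2 fold -0.21), TFDP2 with 125 and 119 (-0.02) and E2F4 with 120 and 119 (0.03). TFDP1 and TFDP2 encode the DP subunits that pair with E2F proteins, and E2F4 is the repressive E2F of DREAM.

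The arm between p53 and RB was mixed in direction. Of its 10 genes, which include CDKN1A, 4 were below 0 and 6 above, and the median was 0.07. Among all genes that passed the filter, 50.3% were below 0. CDK4, a kinase that phosphorylates RB, had 608 and 516 counts (log2 fold -0.19, -0.36 to -0.02). CCND1, its cyclin, had 228 and 236 (0.10), and CDK6 had 214 and 232 (0.16). Under ERCC scaling CCND1 and CDK6 are below 0.

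Both lists of target genes were lower throughout. Among 33 G2/M targets of MYBL2-MuvB and FOXM1, 33 had a log2 fold below 0, against 50.3% of all genes that passed the filter. Of these targets 18 were at -0.25 or lower, against 16.0% of all genes, and 1 at -0.5 or lower, against 7.50%. The median of the list was -0.29. TOP2A, a topoisomerase of mitotic chromosomes, had 366 and 275 counts (log2 fold -0.37, -0.60 to -0.14). CENPF, a kinetochore protein, had 331 and 260 (-0.30, -0.54 to -0.06), and UBE2C, the ubiquitin-conjugating enzyme of the anaphase-promoting complex, had 299 and 229 (-0.34, -0.59 to -0.09). Each of these 3 intervals lies below 0. The folds of MYBL2 and FOXM1, -0.35 each, lie within the range of the list, -0.54 to -0.06.

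Among 26 G1/S targets of E2F and DREAM, 26 were below 0, against 50.3% of all genes that passed the filter. Of these targets 14 were at -0.25 or lower, against 16.0% of all genes, and 4 at -0.5 or lower, against 7.50%. The median of the list was -0.27. MCM4, part of the replicative helicase, had 241 and 182 counts (log2 fold -0.36). PCNA, the clamp of DNA polymerases, had 225 and 176 (-0.31), and RRM2, a subunit of ribonucleotide reductase, had 218 and 169 (-0.32). The median of the G1/S list was close to that of the G2/M list, and the difference between them was not tested. In large columns alone the medians were -0.17 for G2/M and -0.19 for G1/S targets. In small columns they were -0.66 over the 32 G2/M genes and -0.74 over the 18 G1/S genes that passed the filter there. A gene passes that filter through 1 pool alone, so genes low under Nutlin-3 can enter by their ethanol counts. The small-column medians therefore support nothing. Both lists were written with earlier results of these data known, so their direction is no independent evidence.

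**Figure D5:**
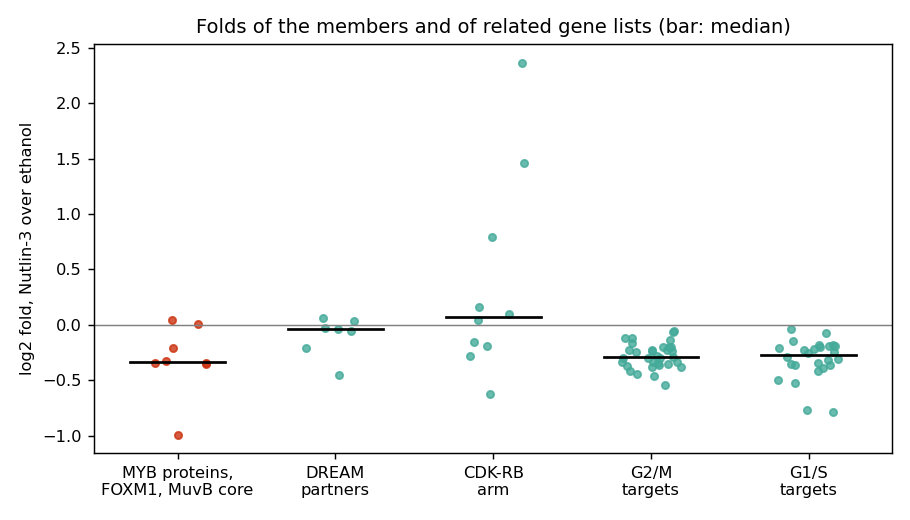
Log2 fold of Nutlin-3 over ethanol (y axis) for the 8 genes (red) and 4 related lists (green), 1 point per gene, with the list's median as a bar and a random sideways shift. All 33 G2/M and 26 G1/S targets lie below 0, where 50.3% of all genes that passed the filter do. The 7 DREAM partners have a median of -0.04, and the highest point of the CDK-RB arm is CCND2, on 3 and 17 counts.

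Genes whose counts were distributed most like each regulated gene over the 4 groups of columns (large and small, ethanol and Nutlin-3) were sought among the 8654 named genes that averaged 50 CPM or more. The measure was the distance of centred log2(CPM + 1) values, so it is a description over 4 values. FOXM1 was nearest to ISOC1 at 0.0205, EGLN1 at 0.0450 and SGO1 at 0.0723. MYBL2 was nearest to ECT2 at 0.111, RNF168 at 0.111 and CEP55 at 0.136. MYBL1 had no gene as near, and its closest were SRGAP2C at 0.461, LPL at 0.484 and STIL at 0.494.

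The genes lie on 7 chromosomes in GENCODE 29 on GRCh38, and all are protein coding. MYBL1 (ENSG00000185697) is at 66562175 to 66614247 on the minus strand of chromosome 8, MYBL2 (ENSG00000101057) at 43667019 to 43716496 on the plus strand of chromosome 20, and FOXM1 (ENSG00000111206) at 2857681 to 2877155 on the minus strand of chromosome 12. LIN9 (ENSG00000183814), at 226231149 to 226309869 on the minus strand, and RBBP4 (ENSG00000162521), at 32651142 to 32686211 on the plus strand, are both on chromosome 1. LIN37 (ENSG00000267796) is at 35748361 to 35754519 on the plus strand of chromosome 19, LIN52 (ENSG00000205659) at 74084796 to 74201235 on the plus strand of chromosome 14, and LIN54 (ENSG00000189308) at 82909973 to 83012926 on the minus strand of chromosome 4.

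Some of these genes share exon sequence with a neighbour, and the use of strand in counting is not given in the sources used here. FOXM1 shares 781 exon bases with ITFG2 on the opposite strand, which had 96 and 92 counts. RBBP4 shares 1706 with SYNC, also opposite, which had 107 and 106. LIN37 overlaps an antisense gene with 4 and 5 counts over 1180 bases and a coding gene of its own strand over 752 bases. The counts of FOXM1, RBBP4 and LIN37 are uncertain to that extent. Processed copies of RBBP4 that were in the table, RBBP4P1, RBBP4P2 and RBBP4P3, had at most 5 counts in a pool.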

How the data were processed

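The authors deposited 1 table of whole-number counts per gene and column, named by 12 bases and a treatment word, from libraries made with a SureCell 3' kit per the labels' protocols. The aligner, build, annotation, use of molecular tags and cell filter were not given in the sources used here. Columns were summed per treatment without the 62 ERCC species, and 0 columns were left unassigned. A test on 4 library sums had been planned and could not be made, since the columns do not name the library.

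Log2 folds used TMM factors (edgeR 4.0.16 in R 4.3.3) and 0.5 added counts. The edgeR filter with a minimum of 10 kept 14830 genes, all 8 members among them. Intervals were computed in Python 3.11.15 with scipy 1.17.1, after a check on simulated data. The simulated counts were independent Poisson counts, so the check says nothing of the narrower spread between the columns. Symbols came from a table of gene identifiers, and 20909 genes had one.

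The members and all gene lists were chosen with earlier results of these data known. Genes named beside the members are CDKN1A, MDM2, the 3 most counted genes of each list, the 3 nearest genes in pattern, and MYB and RBBP7 as relatives. CCND2 and RBL1 were named after their values were seen. RBBP7, the close relative of RBBP4, had 158 and 143 counts. The alternatives were DESeq2 1.42.0 size factors, ERCC scaling, subsets of columns, thinning and another added count.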

Additional observations from a re-analysis of the deposited data

How the results depend on the processing

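Subsets of columns are overlapping parts of the data on which the genes were chosen, so a shared direction among them adds no support. The summed fold of MYBL1, MYBL2 and FOXM1 was below that of the core in each subset of columns tried. Its difference from the core cannot move with DESeq2 or ERCC scaling, which shift all genes alike. With ERCC counts as library size, which lowers every log2 fold by 0.47, it was -0.95, the summed core -0.62 and the core median -0.67. In large columns alone it was -0.39, the summed core -0.15 and the difference between the summed folds -0.24. In small columns alone it was -1.24 and the difference between the summed folds -1.13. In the 31 columns per treatment whose names occur in 1 treatment it was -1.50, on 8 and 3 counts, the summed core -0.87, on 16 and 10, and the difference -0.72. DESeq2 size factors, large columns, columns with names in both treatments, leaving out shallow columns, thinning the deeper pool and 1 added count moved none of the summed folds by more than its counting interval. Of 64 folds of single members under these alternatives, 53 stayed within their interval and 11 did not, 5 of them under ERCC scaling and 5 in small columns. RBBP4 was the other, at -0.96 on 12 and 7 counts in columns with names in 1 treatment. LIN54 in small columns changed sign, on 2 and 6 counts. Of 48 shares of columns with a count 28 moved beyond their interval, as did 8 of 15 list medians. Shares without thinning and list medians under ERCC scaling were bound to move, so part of these totals was fixed in advance. A further 11 values, the core median in small columns and in columns with names in 1 treatment among them, had too few counts or genes and were not computed. The share of genes at -0.25 or lower was 27.1% without the filter, 14.8% in large columns, 31.2% in small columns and 79.9% under ERCC scaling. Leaving out RBBP4 or MYBL1 was chosen after seeing the data. No paired analysis was possible because the columns do not name the library, and leaving out each library was not run for the same reason.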
